A study of Mus musculus with 32 samples.

Results

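The 6 genes described here encode chemokines that attract activated T cells and the receptor that 3 of them share. They are the CXCR3 ligands Cxcl9, Cxcl10 and Cxcl11, the ligands Cxcl16 and Ccl5, which act on other receptors, and Cxcr3 itself. They were taken by symbol from the 33654 gene rows of each of 4 deposited tables, and all 6 were present and expressed highly enough to be tested in every table. The values are in TPM, a unit that divides the reads of a gene by its length and sets every library to the same total.

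The 32 RNA-seq libraries came from tumor cells of mice and from CD8 T cells, the cytotoxic arm of the T cell response. In the time course, cells were isolated from tumors of the MMTV-PyMT model after 2, 3 or 4 weeks, stages the submitters call early, middle and late. There were 3, 4 and 4 tumor cell libraries and 3 CD8 T cell libraries of each week. In the knockdown set, cells came from xenografts labelled shMogat1 (genotype Mogat1 knockdown) or shCTRL (genotype WT), with 3 libraries of each label for each cell type. All groups share the MMTV-PyMT background, in which a mammary tumor virus promoter drives the polyoma middle T oncogene mainly in mammary epithelium. The labels give no strain, age, number of animals, hairpin sequence or clone number, and do not tie replicates to animals. The p-values measure the spread between these libraries, which may be partly technical. Between replicates of a group, the median squared difference of a gene was 2.37 to 4.10 times that of read counting alone in the knockdown set. In the time course it was 6.55 to 60.9 times that. The small p-values of the knockdown set rest on this narrow spread, and whether it holds between animals was not tested.

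The check of the targeted gene went against the labels. Mogat1, an enzyme that makes diacylglycerol, stood at 0.62, 0.15 and 0.53 TPM (12, 2 and 10 reads) in the tumor cell libraries labelled shMogat1, and was listed at 0 in the 3 labelled shCTRL, where a count of 0 allows up to 3 reads. In tumor cells of the time course, Mogat1 averaged 2.28 ± 1.45 TPM at week 2, 6.82 ± 2.17 TPM at week 3 and 37.1 ± 1.75 TPM at week 4. Its week 4 libraries held 514 to 629 reads. With Mogat1 listed at 0 under the shCTRL label, a knockdown could not be detected. The directions given below for this set are those of the labels only. The tumor cell label was also checked against Epcam, a defining epithelial marker. Epcam ranged over 249 to 567 TPM in the time course, and lay at 28.4 to 30.8 TPM in the tumor cell libraries labelled shMogat1 against 0.56 to 0.864 TPM in those labelled shCTRL. The 8 epithelial markers summed to 942 to 982 TPM in the shMogat1 label and 202 to 218 TPM in the shCTRL label. Epcam was thus near 0 in the tumor cell libraries labelled shCTRL. The CD8 T cell libraries held 4738 to 6507 TPM of 11 T cell markers, but also 650 to 3293 TPM of 12 macrophage and monocyte markers. In bulk RNA, fewer cells of a type and less RNA per cell cannot be told apart. Read numbers recovered from the steps between TPM values showed 10119840 to 20087450 reads per library in the genes where recovery worked, which held 36.1% to 48.8% of the TPM checked.

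Chemokines are small secreted proteins that bind receptors coupled to G proteins and steer migrating leukocytes. CXCL9, CXCL10 and CXCL11 are induced by interferon, with help from NF-kB, and bind CXCR3, which is carried by effector CD8 T cells, Th1 cells and NK cells. CXCL16 is made as a membrane-bound protein, is shed by the proteases ADAM10 and ADAM17, and binds CXCR6. CCL5, also called RANTES, binds several chemokine receptors, CCR1 among them, and is made by activated T cells and NK cells as well as by other cells. In tumors, these ligands are known as signals for T cell entry.

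On mouse build GRCm38 (mm10), with GENCODE M21 positions, the CXCR3 ligand genes lie side by side on the minus strand of chromosome 5. Cxcl9 (ENSMUSG00000029417.9) spans 92321347 to 92328079, Cxcl10 (ENSMUSG00000034855.13) spans 92346638 to 92348889, and Cxcl11 (ENSMUSG00000060183.6) spans 92359544 to 92365485. The annotation calls Cxcl11 a polymorphic pseudogene, a gene that is intact in some strains only, and the strain used here is not in the labels. Cxcl16 (ENSMUSG00000018920.11) spans 70453983 to 70459984 and Ccl5 (ENSMUSG00000035042.2) spans 83525778 to 83530518, both on the minus strand of chromosome 11. Cxcr3 (ENSMUSG00000050232.6) spans 101731535 to 101734269 on the minus strand of chromosome X. Art3 runs over Cxcl10 and Cxcl11 on the other strand, and Zmynd15 overlaps the start of Cxcl16. The sources used here do not say whether reads were counted by strand. Without strand, reads of a gene and its antisense neighbour cannot be told apart. Art3 stood between 12.6 and 58.3 TPM in the tumor time course and reached at most 4.39 TPM in the other tables. Zmynd15 stood between 7.43 and 23.4 TPM in the tumor time course and between 7.29 and 9.28 TPM in the CD8 T cell knockdown table, and reached at most 5.36 TPM in the other tables.

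The stretches of 250 bases before the start of Cxcl10 and Cxcl9 are shown because both genes fell in the tumor time course but differed in the knockdown set. They come from RefSeq on GRCm38.p6, read 5′ to 3′ on the minus strand. Of the 6 genes, 3 matched the promoter table (Cxcl9, Cxcl10 and Cxcr3). Capitals mark matches to 4 motifs searched on both strands. These were the interferon-stimulated response element core GAAANNGAAA, the gamma-activated site TTCNNNGAA, and kappaB sites of NF-kB written as GGGNNNTTCC or GGGANTTCC.
Cxcl10, chr5:92348890-92349139: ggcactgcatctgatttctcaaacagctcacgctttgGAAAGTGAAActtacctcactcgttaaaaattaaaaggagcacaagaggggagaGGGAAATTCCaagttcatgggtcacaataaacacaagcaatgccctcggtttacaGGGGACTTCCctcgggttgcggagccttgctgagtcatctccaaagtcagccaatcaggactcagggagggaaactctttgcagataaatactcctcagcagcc
Cxcl9, chr5:92328080-92328329: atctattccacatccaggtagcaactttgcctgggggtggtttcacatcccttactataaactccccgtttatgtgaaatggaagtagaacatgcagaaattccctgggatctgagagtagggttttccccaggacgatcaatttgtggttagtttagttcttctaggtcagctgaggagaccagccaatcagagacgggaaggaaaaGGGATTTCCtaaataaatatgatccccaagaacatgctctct
The Cxcl10 window held the response element match GAAAGTGAAA from position -213 to -204, counted from the gene's start. It also held the kappaB matches GGGAAATTCC at -159 to -150 and GGGGACTTCC at -104 to -95, and the second of these overlaps a match of the shorter kappaB form. The Cxcl9 window held 1 match, GGGATTTCC at -42 to -34. No match to these motifs was found in the window of Cxcr3, chrX:101734148-101734397. That window reaches into the span of Cxcr3 given above, unlike those of Cxcl9 and Cxcl10, so it is not the same upstream region. Over 32851 promoters, 2.98% held the response element core, 7.02% the gamma-activated site, 4.65% the longer and 1.43% the shorter kappaB form. A match describes the letters only and is not a measured binding site.

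In tumor cells, the transcripts of all 3 CXCR3 ligands and of Ccl5 were many-fold lower at week 4 than at week 2. Cxcl9, known as a monokine induced by interferon gamma, stood at 250, 416 and 612 TPM at week 2, at 434, 176, 219 and 165 TPM at week 3, and at 60.6, 76.4, 32.7 and 14.6 TPM at week 4. Every week 4 library lay below every library of the earlier weeks, while weeks 2 and 3 overlapped. Means were 426 ± 181 TPM at week 2 (SD, n = 3), 248.5 ± 126 TPM at week 3 (n = 4) and 46.1 ± 27.7 TPM at week 4 (n = 4). On the scale of mean log2(TPM + 1), the week 4 minus week 2 difference was -3.33 (SE 0.53, limma adjusted p = 0.000553). All adjusted p-values are from limma with Benjamini-Hochberg adjustment over all genes tested in a table, with 0.05 as the threshold.

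Cxcl10 had the highest level of the 6 genes in 10 of the 11 tumor cell libraries. It stood at 819, 827 and 525 TPM at week 2, at 621, 406, 410 and 296 TPM at week 3, and at 102, 116, 70.5 and 53.3 TPM at week 4. The week 4 libraries again lay apart from all others. Week 4 minus week 2 gave a log2 difference of -3.10 (SE 0.30, adjusted p = 2.58e-05), with means of 85.5 ± 28.7 TPM at week 4 (n = 4) and 723.5 ± 172 TPM at week 2 (n = 3). Cxcl11, the CXCR3 ligand of highest affinity in humans, was the scarcest of the 3. Its values were 25.6, 42.5 and 44.5 TPM at week 2, 31.1, 13.1, 19.0 and 14.7 TPM at week 3, and 4.37, 4.84, 2.09 and 1.99 TPM at week 4. Its week 4 minus week 2 log2 difference was -3.18 (SE 0.33, adjusted p = 4.13e-05), and again no week 4 library reached the earlier range.

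Ccl5 had the largest difference of the 6. It stood at 321, 187 and 68.8 TPM at week 2, at 52.3, 31.7, 43.3 and 37.9 TPM at week 3, and at 14.3, 8.62, 2.70 and 5.19 TPM at week 4. The 3 weeks did not overlap. Between weeks 4 and 2 the log2 difference was -4.41 (SE 0.52, adjusted p = 8.71e-05), and without week 2 replicate 3, the lowest of its group, it was -5.01. Ccl5 was the 1 member called lower at week 3 than at week 2, with a log2 difference of -1.96 (SE 0.52, adjusted p = 0.0215, or -2.56 without week 2 replicate 3). That call was lost with library weights (adjusted p = 0.108), without week 2 replicate 2 (0.0875) and without week 3 replicate 4 (0.0517).

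**Figure D1:**
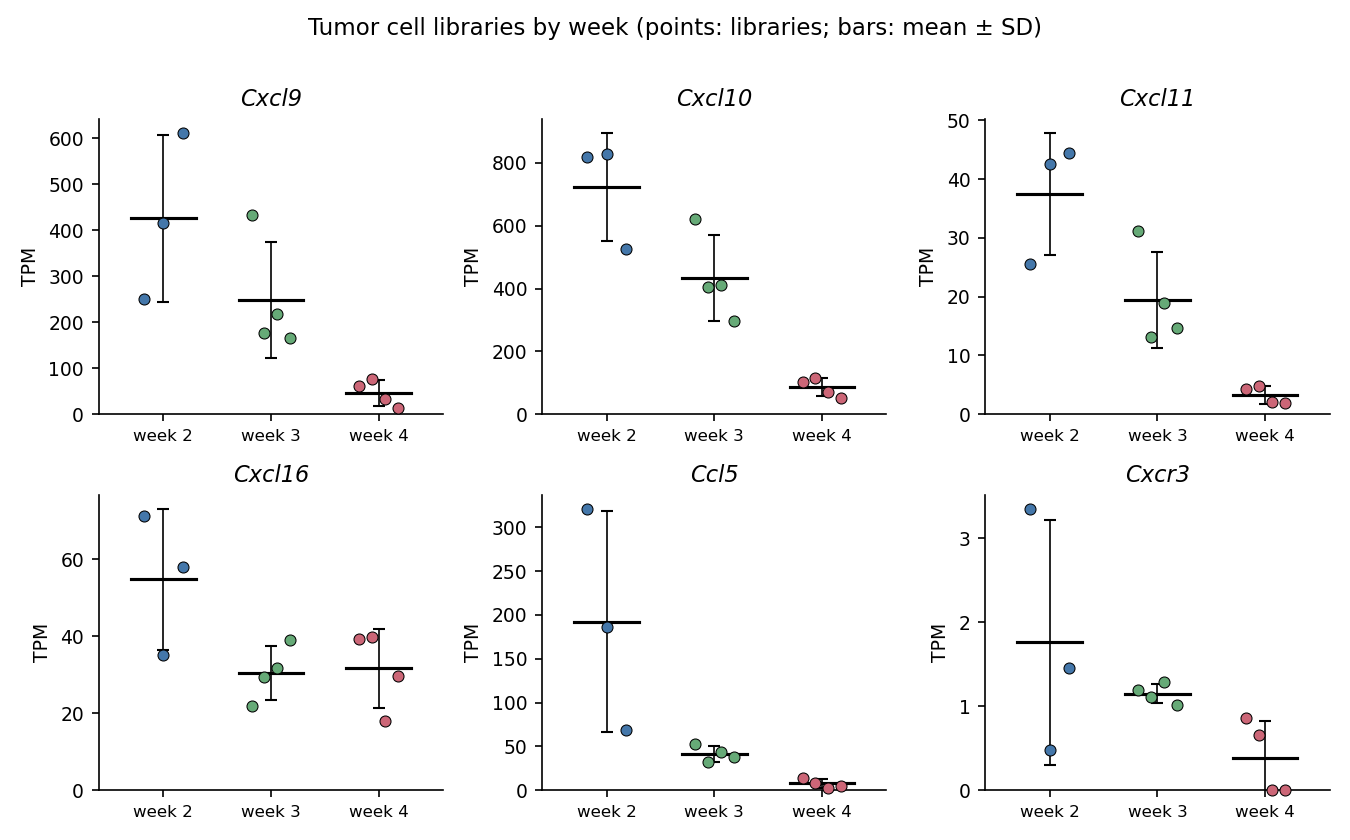
TPM of the 6 genes in the tumor cell libraries of weeks 2, 3 and 4, each on an axis from 0. Points are libraries, bars are the mean and SD (n = 3, 4 and 4). The week 4 libraries of Cxcl9, Cxcl10, Cxcl11 and Ccl5 lie below all libraries of week 2, while those of Cxcl16 and Cxcr3 overlap with week 2.

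Cxcl16, the ligand of CXCR6, did not share this course. It stood at 71.3, 35.1 and 58.0 TPM at week 2, at 21.8, 29.4, 31.7 and 39.0 TPM at week 3, and at 39.4, 39.8, 18.1 and 29.6 TPM at week 4. Its libraries overlapped between all weeks. The log2 difference of week 4 minus week 2 was -0.78 (SE 0.30, adjusted p = 0.0564), and that of week 4 minus week 3 was 0.02 (SE 0.28, adjusted p = 0.972). The week 4 minus week 2 difference passed the threshold under median-of-ratios rescaling (adjusted p = 0.0182), under quantile normalization (0.0160) and without week 2 replicate 2 (0.0230), week 4 replicate 1 (0.0480) or week 4 replicate 2 (0.0472). Its range over all settings was 0.0160 to 0.319.

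Cxcr3 was near the detection limit in tumor cells. It stood at 3.35, 0.48 and 1.46 TPM at week 2 (73, 11 and 37 reads), at 1.19, 1.11, 1.28 and 1.02 TPM at week 3, and at 0.86, 0.66, 0 and 0 TPM at week 4 (16, 12, 0 and 0 reads). Weeks 4 and 2 overlapped. The log2 difference of -0.92 (SE 0.34, adjusted p = 0.0473) lay just past the threshold and was lost in 14 of 19 alternative settings, for example without week 2 replicate 1 (adjusted p = 0.186) and with library weights (0.257).

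Of the 6 genes, 5 were thus called lower at week 4 than at week 2 and none higher, where 17.1% of the 14770 tested genes were called lower and 29.2% higher. Cxcr3, 1 of the 5, was under 1 TPM in every week 4 library and met the filter only through the earlier weeks. Its call was lost in most alternative settings. In 4 of the 6, all week 4 libraries lay below all week 2 libraries, which held for 17.3% of tested genes. The median log2 difference over the 6 genes was -3.14 and that over all tested genes was 0.11. Of all calls, 63.1% were higher, a share of 49.9% under median-of-ratios rescaling, which brings the median over all genes to -0.02; all 6 members were called lower under it. Between weeks 3 and 2, 1 of 6 was called lower against 4.01% of tested genes, and 83.3% of all calls were higher (56.9% and 63.2% under median-of-ratios and quantile rescaling). The week 3 minus week 2 differences were -0.80 for Cxcl9, -0.76 for Cxcl10, -0.95 for Cxcl11 and -0.80 for Cxcl16 (adjusted p = 0.298, 0.0876, 0.0613 and 0.0791). Those of Cxcl10, Cxcl11 and Cxcl16 passed under median-of-ratios rescaling (0.0386, 0.0391 and 0.0301). Between weeks 4 and 3, 4 of 6 were called lower against 8.19% of tested genes, and 40.3% of all calls were higher (51.5% under quantile normalization). The differences were -2.53 for Cxcl9, -2.34 for Cxcl10, -2.24 for Cxcl11 and -2.45 for Ccl5 (adjusted p = 0.00696, 0.000473, 0.00116 and 0.00761).

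No test of the proportions among the 3 CXCR3 ligands passed between weeks, while their mean sum was lower at each later week. Together they held 1187 ± 96.0 TPM at week 2 (n = 3), 701.1 ± 266 TPM at week 3 (n = 4) and 134.9 ± 57.9 TPM at week 4 (n = 4). The ratio of Cxcl9 to Cxcl10 ranged over 0.305 to 1.17 at week 2, 0.433 to 0.699 at week 3 and 0.274 to 0.658 at week 4. An exact permutation test over all 11550 assignments of libraries to weeks was adjusted over 4 ratios. Its statistic was the between-week F over the 3 weeks together. Its p-values are thus not those of week 4 against week 2 alone. Neither Cxcl9 per Cxcl10 nor Cxcl11 per Cxcl10 differed between weeks in this test. The week 4 minus week 2 log2 differences were -0.23 for Cxcl9 and -0.08 for Cxcl11 (adjusted p = 0.875 for both). Week 2 spread most: its ratio of Cxcl9 to Cxcl10 was 0.305, 0.503 and 1.17 in the 3 libraries.

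Cxcl16 per Cxcl10 did differ between weeks. This restates the week 4 minus week 2 differences given above, -0.78 for Cxcl16 and -3.10 for Cxcl10, and is not a separate result. The log2 ratio averaged -3.73 ± 0.71 at week 2 (n = 3), -3.76 ± 0.77 at week 3 (n = 4) and -1.40 ± 0.45 at week 4 (n = 4; exact permutation p = 0.00658, adjusted p = 0.0263). All week 4 libraries (-1.91 to -0.83) lay above all week 2 libraries (-4.52 to -3.16). The call was lost without week 4 replicate 2, 3 or 4 (adjusted p = 0.0705, 0.0686 and 0.0743), where the week 4 minus week 2 difference stayed between 2.13 and 2.49. Ccl5 per Cxcl10 had a week 4 minus week 2 difference of -1.31 on the log2 scale. Its test over all weeks did not pass (exact permutation p = 0.0357, adjusted p = 0.0713). It passed without week 2 replicate 3 (-1.70, adjusted p = 0.0394) and without week 4 replicate 1 (-1.54, adjusted p = 0.0362).

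**Figure D2:**
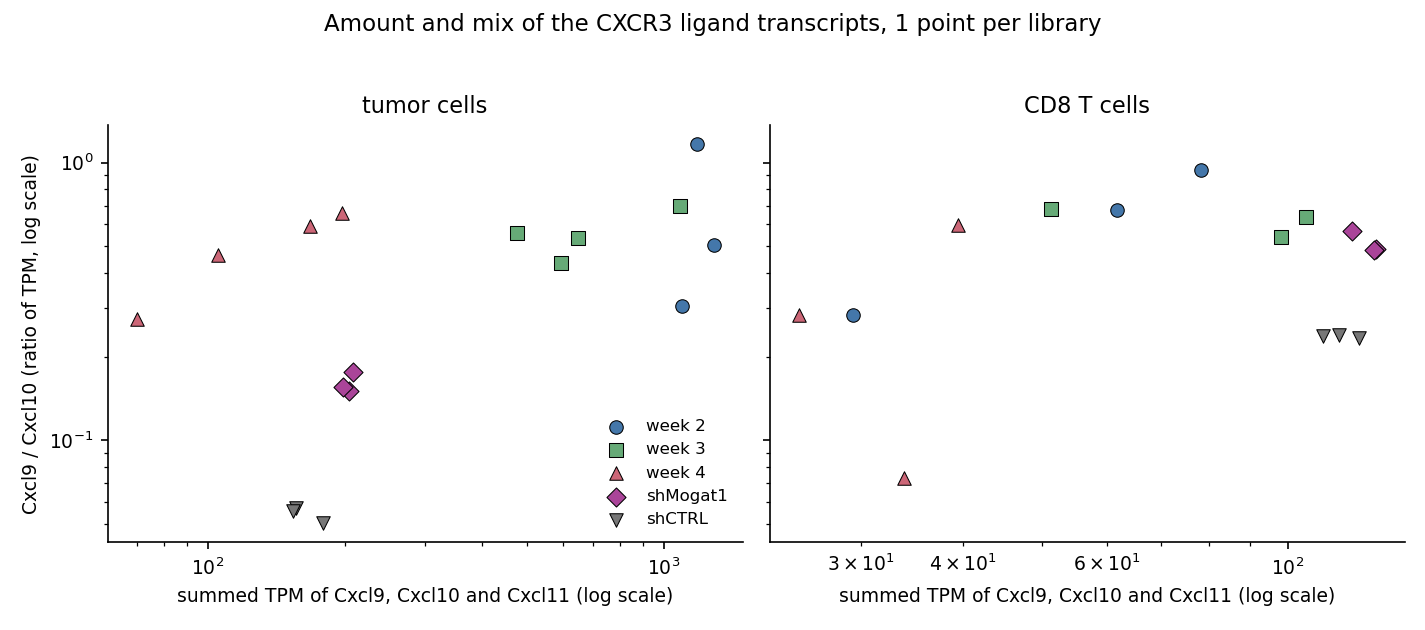
Ratio of Cxcl9 to Cxcl10 TPM (log scale) against the summed TPM of Cxcl9, Cxcl10 and Cxcl11 (log scale), 1 point per library, for tumor cells (left) and CD8 T cells (right). In tumor cells, week 4 lies apart along the summed level (69.8 to 197 TPM) and the weeks share a range of ratios, while the libraries labelled shMogat1 (0.150 to 0.176) lie above those labelled shCTRL (0.0501 to 0.0568) in the ratio.

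Transcripts of other cells changed over the same weeks. Ptprc, which encodes the pan-leukocyte antigen CD45, averaged 12.1 ± 7.68 TPM at week 4 and 55.9 ± 37.3 TPM at week 2 in tumor cells (log2 difference -2.17, SE 0.59, adjusted p = 0.0115, 0.128 with library weights). The marker counts that follow stand beside 17.1% of all tested genes called lower and 29.2% called higher. Of 11 tested T cell markers, 10 were called lower at week 4, with a median of -2.19, and their sum was 18.2 to 43.9 TPM at week 4 against 80.6 to 279 TPM at week 2. Of 12 macrophage and monocyte markers, 2 were called lower, with a summed level of 539 to 1685 TPM at week 4 against 795 to 3011 TPM at week 2. The endothelial markers had 6 of 8 called lower (27.9 to 40.0 TPM summed at week 4 against 113 to 226 TPM at week 2), and the B and plasma cell markers 6 of 7 (1.63 to 12.1 TPM against 39.0 to 318.7 TPM). The dendritic cell markers had 3 of 6 called lower (18.5 to 42.4 TPM against 52.7 to 221 TPM) and the fibroblast markers 1 of 8, Dcn, which fell by 2.56 (SE 0.54, adjusted p = 0.0028). The neutrophil markers had 2 of 4 called higher (135 to 225 TPM against 26.4 to 68.7 TPM), S100a8 by 2.53 (SE 0.36, adjusted p = 0.000293) and S100a9 by 2.00 (SE 0.41, adjusted p = 0.00238), while Ly6g was at 0 in all libraries of both weeks. The epithelial markers had 7 of 8 called higher and 1 lower. The part of these cells in the chemokine levels was not tested.

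The members were also set against Ptprc in the same library. The log2 ratio to Ptprc changed by -1.16 for Cxcl9, -0.93 for Cxcl10 and -1.01 for Cxcl11 between weeks 4 and 2, and by +1.40 for Cxcl16, -2.23 for Ccl5 and +1.25 for Cxcr3. None of the 6 passed the exact permutation test over weeks after adjustment over the 6 (adjusted p = 0.266 for the 3 CXCR3 ligands, 0.0566 for Cxcl16 and for Ccl5, 0.165 for Cxcr3), and 2 of them, Cxcl16 and Ccl5, had an unadjusted p under 0.05 (0.0189 and 0.0097). With Cd53, another leukocyte gene, in place of Ptprc, the Ccl5 difference was -2.79 and the test over weeks passed (adjusted p = 0.0114). Per Ptprc, Ccl5 also passed without week 2 replicate 3 (-2.74, adjusted p = 0.019) and without week 3 replicate 4 (adjusted p = 0.0286). The value for Cxcr3 rested on the pseudocount of 1 TPM, since its difference was -0.02 with a pseudocount of 0.1.

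The genes whose course over the 11 tumor libraries was most like that of a member were picked by the smallest root mean square difference of centred log2(TPM + 1), members left out. For Cxcl10, whose own root mean square deviation was 1.37, the nearest were Gbp2 (0.263), Upp1 (0.289), Il18rap (0.290), Gm2115 (0.315) and Sprr1a (0.315). For Cxcl9 (1.58) they were Tgtp2 (0.340), Gm4841 (0.384), Gm12250 (0.433), Gbp4 (0.436) and Gbp8 (0.438), and Cxcl11 itself lay at 0.372. For Cxcl11 (1.39) they were Gbp8 (0.341), F830016B08Rik (0.344), Gbp4 (0.348), Gbp2 (0.354) and Gbp10 (0.363). The Gbp genes encode guanylate-binding proteins and Tgtp2 a related GTPase, all known as interferon-induced. Gbp2 stood at 714 ± 100 TPM at week 2, 396 ± 91.8 TPM at week 3 and 112 ± 31.7 TPM at week 4.

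Ccl5, with an own deviation of 1.89, had no neighbour as close. The nearest were Ifit3 (0.558), Usp18 (0.598), Ifit3b (0.610), Fendrr (0.626) and Sh3gl3 (0.643). Ifit3 and Usp18 are induced by type I interferon, and Usp18 also damps its receptor. For Cxcl16, whose own deviation was 0.524, the nearest were Gm2a (0.175), Nlrc4 (0.197), Cyba (0.217), Tnip3 (0.224) and Haao (0.227). The other 4 ligands lay 1.26 to 1.62 from it. Gm2a encodes a lysosomal lipid transfer protein, Nlrc4 an inflammasome sensor and Cyba a subunit of the phagocyte oxidase. These likenesses describe libraries that share depth and cell content.

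Among 21 genes of interferon signalling, 11 were called lower in tumor cells at week 4 than at week 2 and none higher, with a median log2 difference of -0.51 against 0.11 over all genes. All tested genes had 17.1% called lower and 29.2% called higher. Usp18 fell by 3.60 (SE 0.30, adjusted p = 1.31e-05) and Socs1, a feedback inhibitor of JAK kinases, fell by 2.59 (SE 0.32, adjusted p = 0.00012). Ifng, the gene of interferon gamma, stood at 0.883 ± 0.70 TPM at week 4 against 4.46 ± 2.16 TPM at week 2 (difference -1.53, SE 0.40, adjusted p = 0.00892). Irf1 had a difference of -0.26 (adjusted p = 0.258). Of 17 NF-kB and TNF genes, 2 were called higher and 5 lower (median -0.06). Tnf rose by 2.51 (SE 0.25, adjusted p = 2.77e-05), and Ripk1, a kinase below the TNF receptor, fell by 0.90 (SE 0.13, adjusted p = 0.000259).

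Of 28 other chemokines tested in tumor cells, 2 were called higher and 4 lower between weeks 4 and 2 (median -0.44), beside the 29.2% and 17.1% of all tested genes. Ccl20, the ligand of CCR6, rose by 3.41 (SE 0.35, adjusted p = 3.81e-05) and Ccl1 fell by 1.72 (SE 0.29, adjusted p = 0.000726). Of 7 tested receptors of the member ligands, 3 were called lower (Cxcr3, Cxcr6 and Ackr3) and none higher. Cxcr6, the receptor of CXCL16, stood at 10.3, 7.35 and 10.3 TPM at week 2, at 2.18, 4.14, 5.89 and 10.3 TPM at week 3, and at 1.74, 1.12, 1.26 and 0.41 TPM at week 4. Its difference between weeks 4 and 2 was -2.30 (SE 0.37, adjusted p = 0.00059). Ackr3, an atypical receptor that scavenges CXCL11 and CXCL12, averaged 57.5 ± 28.1 TPM at week 4 and 142.9 ± 58.9 TPM at week 2 (difference -1.36, SE 0.43, adjusted p = 0.0237), a call lost in 4 of 21 alternative settings: with the 2 groups only (0.0601), with library weights (0.138) and without week 2 replicate 1 (0.0713) or 2 (0.0957). Ccr1 (-1.03, adjusted p = 0.185) did not pass. Ccr2 and Ccr7 were among 6 of 10 tested other chemokine receptors called lower. Ccr7 guides naive T cells and mature dendritic cells to lymph nodes and fell by 3.47 (SE 0.74, adjusted p = 0.00312).

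None of 4 proteases that act on the ligands passed between weeks 4 and 2 in tumor cells by limma, and none had an unadjusted p under 0.05. The sheddases of CXCL16 were level: Adam10 averaged 103 ± 6.04 TPM at week 4 and 103 ± 13.2 TPM at week 2, and Adam17 averaged 67.5 ± 4.99 TPM at week 4 and 68.4 ± 12.2 TPM at week 2. Dpp4, whose product trims the amino terminus of CXCL10 and other chemokines, had its low point at week 3. It averaged 2.08 ± 1.09 TPM there (n = 4) against 10.4 ± 4.85 TPM at week 2 (n = 3; difference -1.85, SE 0.52, adjusted p = 0.027, a call lost in 6 alternative settings).

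In CD8 T cells, Cxcr3 showed no difference between weeks beyond its spread. It stood at 55.7, 29.6 and 24.2 TPM at week 2, at 55.8, 31.5 and 31.3 TPM at week 3, and at 49.7, 34.4 and 25.0 TPM at week 4. Each week held 1 library near 50 TPM or above and 2 between 24.2 and 34.4 TPM, so the weeks overlapped almost wholly. Between weeks 4 and 2 the log2 difference was 0.03 (SE 0.36, adjusted p = 0.961), with means of 36.4 ± 12.5 TPM at week 4 and 36.5 ± 16.9 TPM at week 2 (n = 3 each). At 502 to 1263 reads a library, counting noise was small beside the spread between replicates.

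Cxcr6, the receptor of CXCL16 on tissue-resident and effector T cells, rose in CD8 T cells. It stood at 121, 80.1 and 162 TPM at week 2, at 161, 136 and 135 TPM at week 3, and at 371, 330 and 240 TPM at week 4. All week 4 libraries lay above all others. The week 4 minus week 2 difference was 1.40 (SE 0.25, adjusted p = 0.00759) and passed in all 19 alternative settings. The week 4 minus week 3 difference was 1.10 (SE 0.25, adjusted p = 0.0514) and passed in 8 of 19. Relative to Cd3e, a subunit of the T cell receptor complex, Cxcr6 was higher by 1.76 on the log2 scale at week 4 than at week 2. The exact permutation test over all weeks gave p = 0.0143 over 1680 assignments (adjusted over 4 genes p = 0.0571, and 0.0143 without week 2 replicate 3). The same ratio differed by 0.40 for Cxcr3 (adjusted p = 0.91). Ackr3 averaged 1.02 ± 0.447 TPM at week 4 and 5.59 ± 3.08 TPM at week 2. Its difference of -1.60 (SE 0.49, adjusted p = 0.0508) did not pass but did so in 10 of 19 alternative settings (adjusted p = 0.0157 to 0.163 over all of them).

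**Figure D3:**
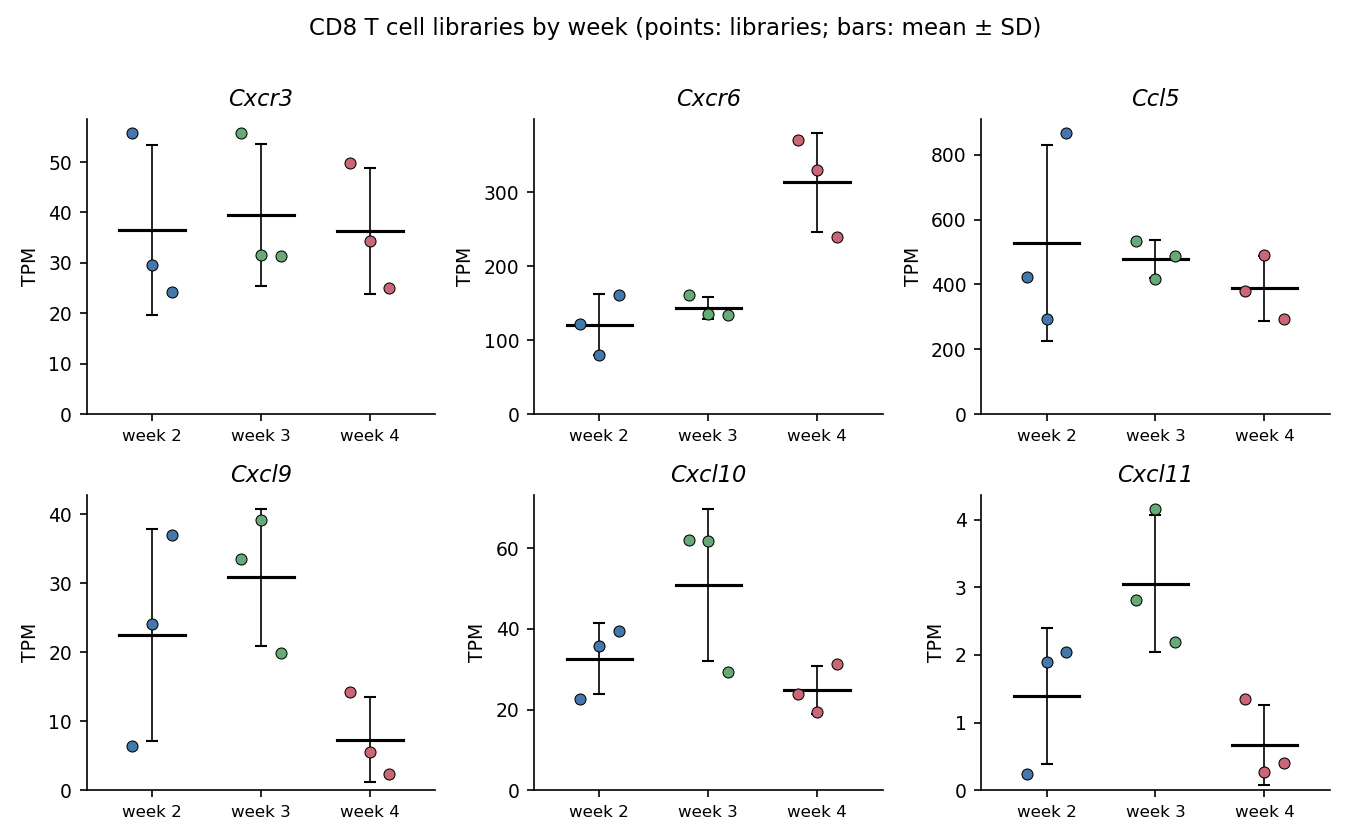
TPM of Cxcr3, Cxcr6, Ccl5, Cxcl9, Cxcl10 and Cxcl11 in the CD8 T cell libraries of weeks 2, 3 and 4, each on an axis from 0. Points are libraries and bars the mean and SD (n = 3 each). Cxcr6 at week 4 (240 to 371 TPM) lies above both earlier weeks, and the weeks overlap for Cxcr3 and Ccl5.

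Ccl5 was the most abundant member in CD8 T cells. It stood at 422, 294 and 867 TPM at week 2, at 533, 416 and 488 TPM at week 3, and at 381, 492 and 293 TPM at week 4. The weeks overlapped, and the week 4 minus week 2 difference was -0.32 (adjusted p = 0.534). The CXCR3 ligands lay below their levels in the tumor cells of weeks 2 and 3. At week 4 each of them also lay below every tumor cell library of that week. Only CD8 T cell libraries of earlier weeks reached into the range of tumor cells at week 4. Cxcl10 ranged over 22.7 to 39.4 TPM at week 2, 29.2 to 61.9 TPM at week 3 and 19.4 to 31.2 TPM at week 4. Cxcl9 stood at 6.41, 24.1 and 37.0 TPM at week 2, at 33.5, 39.2 and 19.9 TPM at week 3, and at 14.2, 5.49 and 2.29 TPM at week 4.

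The week 4 libraries of Cxcl9 lay below those of week 3 but not below all of week 2. Cxcl11 ranged over 0.24 to 2.05 TPM at week 2 (4 to 48 reads), 2.19 to 4.16 TPM at week 3 (39 to 89 reads) and 0.26 to 1.34 TPM at week 4 (6 to 34 reads). Cxcl16 ranged over 1.46 to 14.5 TPM at week 2, 4.49 to 19.1 TPM at week 3 and 4.91 to 8.35 TPM at week 4. The summed macrophage and monocyte markers also ran highest at week 3 in these libraries, at 776 to 929 TPM, 965 to 1382 TPM and 650 to 1183 TPM in weeks 2, 3 and 4, and their part in the ligand levels was not tested.

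None of the 6 members passed by limma in CD8 T cells in any of the 3 comparisons of weeks. At week 4 against week 2, none had an unadjusted p under 0.05, and 17.5% of the 13350 tested genes were called in either direction, 59.0% of them higher (47.9% under quantile normalization). At week 3 against week 2, none had one either, and 0.0449% of tested genes were called. At week 4 against week 3, Cxcl9 (-2.16, SE 0.66, adjusted p = 0.108), Cxcl10 (-0.96, adjusted p = 0.128) and Cxcl11 (-1.31, adjusted p = 0.104) had unadjusted p-values under 0.05, and 2.67% of tested genes were called, 51.7% of them higher (65.6% and 61.7% under median-of-ratios and quantile rescaling). With library weights these 3 passed (adjusted p = 0.00937, 0.0075 and 0.00825). In no other alternative setting did any member pass in the comparisons of weeks in CD8 T cells.

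Of 11 genes of T-bet and CXCR3 control, 4 were called higher and 1 lower in CD8 T cells between weeks 4 and 2, and 6 did not pass (median 0.56 against -0.01 over all genes, of which 17.5% were called). Tbx21, which encodes T-bet, a transcription factor that activates Cxcr3, averaged 85.5 ± 17.0 TPM at week 4 and 28.2 ± 2.75 TPM at week 2 (n = 3 each; difference 1.55, SE 0.25, adjusted p = 0.00594). Il12rb2, a chain of the interleukin 12 receptor, rose by 1.80 (SE 0.23, adjusted p = 0.00288). Ifng rose by 2.54 (SE 0.39, adjusted p = 0.00504), with means of 271.1 ± 103 TPM at week 4 and 48.1 ± 27.7 TPM at week 2.

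Of 20 tested interferon signalling genes, 2 were called higher and 4 lower in these CD8 T cells between weeks 4 and 2. This count and those of the next lists stand beside 17.5% of all tested genes called in either direction, 59.0% of them higher. Irf9 fell by 0.86 (SE 0.10, adjusted p = 0.00238) and Irf7 by 0.87 (SE 0.11, adjusted p = 0.00281). Of 25 tested other chemokines, 5 were called higher and none lower, with Xcl1, a chemokine that attracts cross-presenting dendritic cells, up by 3.70 (SE 0.61, adjusted p = 0.00612). Of 12 other chemokine receptors, 3 were called higher and 2 lower. Ccr8 rose by 2.54 (SE 0.20, adjusted p = 0.00121) and Cx3cr1, the fractalkine receptor, by 1.65 (SE 0.28, adjusted p = 0.00715). Of 22 genes of chemokine receptor signalling, 3 were called higher and 1 lower, with Rgs1, which shortens G protein signals, up by 1.85 (SE 0.26, adjusted p = 0.0036).

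The genes nearest to Cxcr3 over the 9 CD8 time course libraries were LOC102637491 (0.227), Fibcd1 (0.229), Zcchc18 (0.243), Lppos (0.248) and Gemin6 (0.253), set against an own deviation of 0.433. None of the T-bet or receptor genes was among them. With so small a deviation, these values say little beyond noise.

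In the knockdown set, 5 members were called higher in the tumor cell libraries labelled shMogat1 than in those labelled shCTRL. Cxcl9 stood at 26.0, 26.3 and 30.5 TPM in the libraries labelled shMogat1, against 8.30, 8.49 and 8.02 TPM in those labelled shCTRL. The groups lay far apart, with a log2 difference of 1.62 (SE 0.07, adjusted p = 6.35e-07). Cxcl11 stood at 4.00, 2.81 and 4.82 TPM (90, 45 and 106 reads) in the libraries labelled shMogat1, against 1.43, 1.49 and 1.02 TPM (34, 29 and 22 reads) in those labelled shCTRL. Its difference was 1.06 (SE 0.17, adjusted p = 0.00105).

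Cxcl10, far more abundant than its neighbours, differed little. It stood at 173.6, 168.7 and 173.1 TPM in the libraries labelled shMogat1, against 146.1, 169.3 and 144.4 TPM in those labelled shCTRL. The groups overlapped, and the difference of 0.17 (SE 0.06, adjusted p = 0.0366) was lost in 9 alternative settings, among them median-of-ratios rescaling (0.176). It was lost without any 1 library except shCTRL replicate 2 (adjusted p = 0.0555 to 0.113 without each of the other 5). The ratio of Cxcl9 to Cxcl10 was 0.150 to 0.176 in the libraries labelled shMogat1 and 0.0501 to 0.0568 in those labelled shCTRL. Cxcl10 held 83.0% to 85.3% of the CXCR3 ligand transcripts in the libraries labelled shMogat1, against 93.8% to 94.4% in those labelled shCTRL.

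Ccl5 stood at 34.6, 41.8 and 33.4 TPM in the tumor cell libraries labelled shMogat1, against 19.2, 26.2 and 23.6 TPM in those labelled shCTRL. The groups did not overlap, and the difference was 0.65 (SE 0.12, adjusted p = 0.00213). Cxcl16 stood at 17.5, 15.5 and 14.1 TPM in the libraries labelled shMogat1, against 12.4, 14.1 and 13.7 TPM in those labelled shCTRL, a difference of 0.21 (SE 0.08, adjusted p = 0.0593). That difference passed with a filter of 5 TPM (0.0493) and without shMogat1 replicate 4 (0.0237). Cxcr3 stood at 6.43, 6.98 and 5.98 TPM (112 to 145 reads) in the libraries labelled shMogat1, against 2.51, 3.18 and 3.41 TPM (60 to 74 reads) in those labelled shCTRL, a difference of 0.89 (SE 0.11, adjusted p = 0.000219).

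The 5 of 6 members called higher stood beside 34.6% of the 12936 tested genes called higher in this comparison and 19.9% called lower. The call of Cxcl10, whose groups overlapped, was lost in most alternative settings. All libraries labelled shMogat1 exceeded all those labelled shCTRL in 5 members, Cxcl16 among them and Cxcl10 not, which held for 39.7% of tested genes. The median difference over the members was 0.77 and that over all tested genes was 0.07. Of all calls, 63.5% were higher, against 49.1% under median-of-ratios and 49.7% under quantile rescaling.

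**Figure D4:**
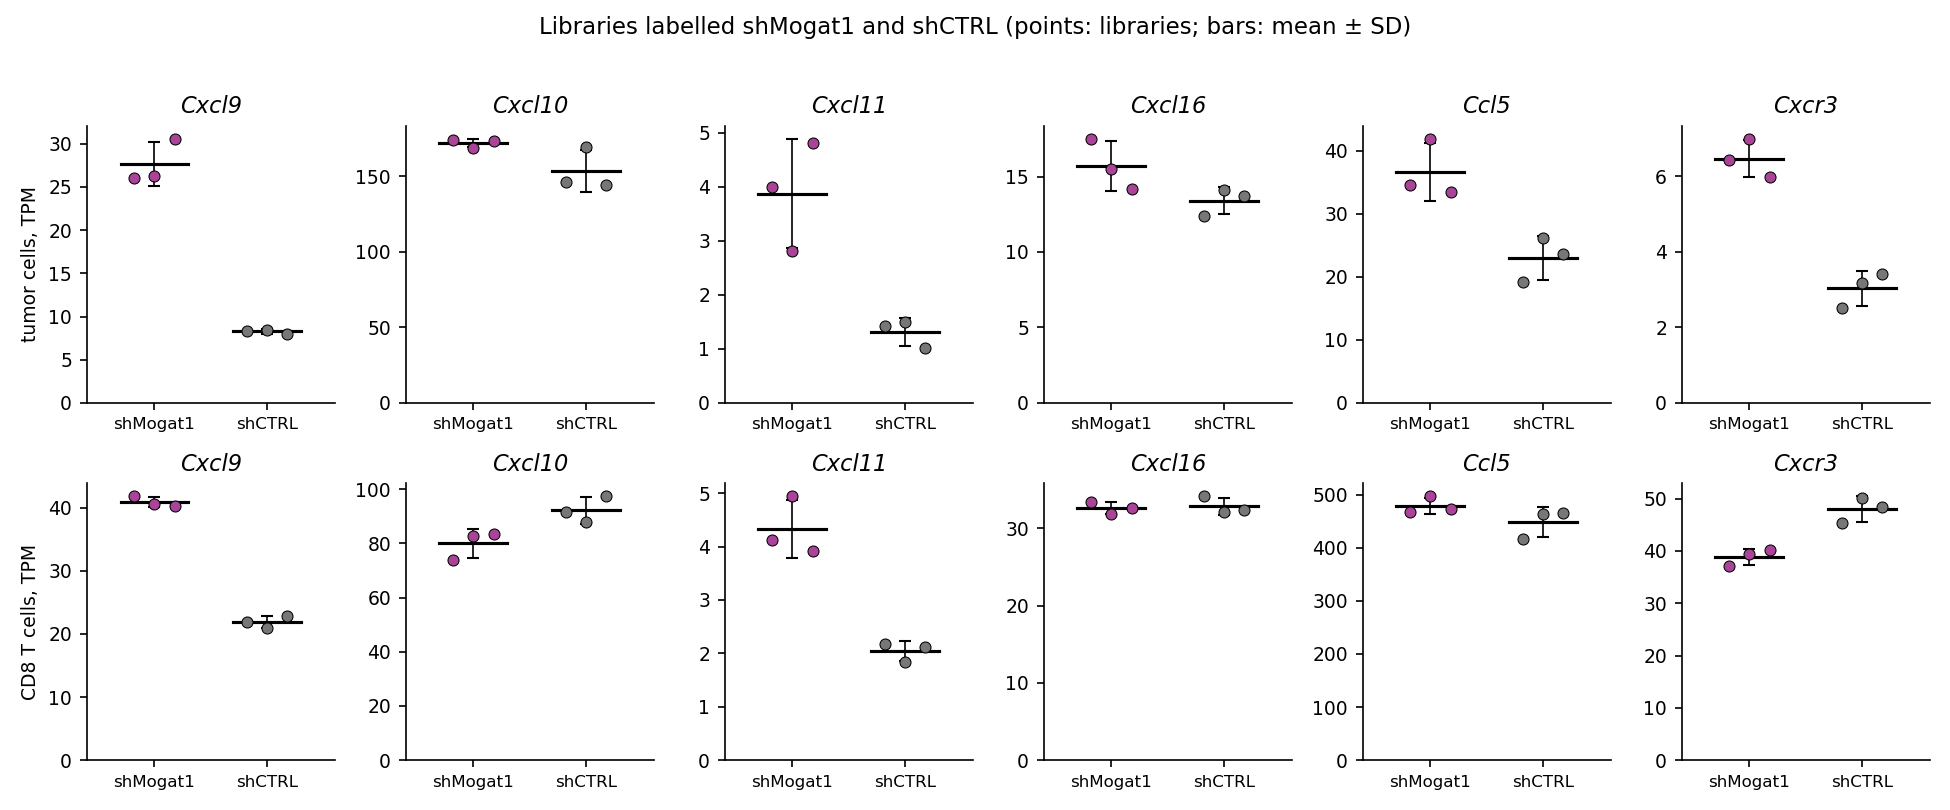
TPM of the 6 genes in tumor cell libraries (upper row) and CD8 T cell libraries (lower row) labelled shMogat1 (left in each panel) and shCTRL (right), each on an axis from 0. Points are libraries and bars the mean and SD (n = 3 each). Cxcl9 and Cxcl11 are higher under the shMogat1 label in both rows, while Cxcr3 is higher in the upper row and lower in the lower row.

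Leukocyte transcripts differed between the same tumor cell libraries. Ptprc stood at 12.0, 11.3 and 11.2 TPM in the libraries labelled shMogat1, against 4.02, 4.28 and 3.86 TPM in those labelled shCTRL (difference 1.30, SE 0.07, adjusted p = 1.89e-06). Marker counts here stand beside 34.6% of all tested genes called higher. Of 12 macrophage and monocyte markers, 12 were called higher, with summed levels of 704 to 728 TPM in the shMogat1 label and 365 to 392 TPM in the shCTRL label. Of 7 tested T cell markers, 6 were called higher, with sums of 19.0 to 19.1 TPM in the shMogat1 label and 4.57 to 6.89 TPM in the shCTRL label. The epithelial markers had 7 of 7 called higher. The part of these cells in the member levels was not tested.

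Among the receptors of the ligands in these tumor cell libraries, 4 of 5 tested were called higher and 1 lower. This count and those of the next lists stand beside 34.6% of all tested genes called higher and 19.9% called lower. Cxcr6 averaged 20.6 ± 1.99 TPM in the libraries labelled shMogat1 and 5.81 ± 0.515 TPM in those labelled shCTRL (difference 1.66, SE 0.09, adjusted p = 2.00e-06). Ccr1 rose by 0.75 (SE 0.16, adjusted p = 0.00514). Ackr3 went the other way, averaging 119.5 ± 4.12 TPM in the libraries labelled shMogat1 and 255.1 ± 3.92 TPM in those labelled shCTRL (difference -1.09, SE 0.03, adjusted p = 7.31e-08). Of 20 interferon signalling genes, 11 were called higher and 3 lower (median 0.18 against 0.07 over all genes). Jak2, a kinase of the interferon gamma receptor, rose by 1.08 (SE 0.04, adjusted p = 2.16e-07). Of 17 NF-kB and TNF genes, 6 were called higher and 7 lower. Nfkb1, a subunit of NF-kB, fell by 0.94 (SE 0.03, adjusted p = 7.55e-08). Of 23 other chemokines, 15 were called higher and 5 lower. Cxcl14 fell by 1.89 (SE 0.04, adjusted p = 2.01e-08) and the neutrophil attractant Cxcl1 fell by 0.89 (SE 0.03, adjusted p = 9.34e-08).

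In CD8 T cells of the knockdown set, Cxcr3 was lower under the shMogat1 label. It stood at 37.1, 39.4 and 40.2 TPM in the libraries labelled shMogat1, against 45.3, 50.1 and 48.5 TPM in those labelled shCTRL. The groups did not overlap, and the log2 difference of -0.30 (SE 0.05, adjusted p = 0.00302) passed in every alternative setting (adjusted p = 0.000686 to 0.0164). Cxcr6 averaged 156 ± 12.8 TPM in the libraries labelled shMogat1 and 159 ± 3.74 TPM in those labelled shCTRL (difference -0.03, adjusted p = 0.676). Of 11 T cell markers, 3 were called higher and none lower, with sums of 4946 to 4957 TPM in the shMogat1 label and 4738 to 4935 TPM in the shCTRL label. Among all tested genes, 16.6% were called higher and 26.2% lower. Tbx21 had a difference of -0.15 (adjusted p = 0.1), and Eomes, the relative of T-bet, fell by 0.51 (SE 0.05, adjusted p = 0.000183).

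The ligands in these CD8 T cell libraries moved unequally. Cxcl9 stood at 41.8, 40.5 and 40.3 TPM in the libraries labelled shMogat1, against 21.9, 20.9 and 22.8 TPM in those labelled shCTRL (difference 0.87, SE 0.05, adjusted p = 7.87e-06). Cxcl11 stood at 4.13, 4.94 and 3.91 TPM (66 to 80 reads) in the libraries labelled shMogat1, against 2.18, 1.84 and 2.12 TPM (30 to 49 reads) in those labelled shCTRL (difference 0.80, SE 0.11, adjusted p = 0.00103). In both genes the groups lay apart. Cxcl10 stood at 73.9, 82.8 and 83.5 TPM in the libraries labelled shMogat1, against 91.4, 87.7 and 97.3 TPM in those labelled shCTRL. Its groups did not overlap either, but in the other direction (difference -0.20, SE 0.06, adjusted p = 0.0269). That call was lost in 6 alternative settings, for example under median-of-ratios rescaling (0.0768) and without shMogat1 replicate 1 (0.0752) or shCTRL replicate 4 (0.0860). The ratio of Cxcl9 to Cxcl10 was 0.482 to 0.565 in the libraries labelled shMogat1 and 0.234 to 0.240 in those labelled shCTRL.

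Ccl5 stood at 468, 497 and 473 TPM in the CD8 T cell libraries labelled shMogat1, against 416, 463 and 465 TPM in those labelled shCTRL (difference 0.10, SE 0.05, adjusted p = 0.143). It passed under median-of-ratios rescaling (0.0348) and quantile normalization (0.0490). Cxcl16 was level, at 33.4, 31.8 and 32.6 TPM in the libraries labelled shMogat1 and 34.1, 32.1 and 32.4 TPM in those labelled shCTRL (difference -0.01, adjusted p = 0.847). Of the 6 members, 2 were called higher and 2 lower, beside 16.6% of the 13742 tested genes called higher and 26.2% called lower. Of all calls, 38.8% were higher, against 49.6% under median-of-ratios and 54.0% under quantile rescaling.

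Other cells' transcripts were high and unequal in these CD8 T cell libraries too. The counts below stand beside 16.6% of all tested genes called higher and 26.2% called lower. Macrophage and monocyte markers summed to 3138 to 3293 TPM in the shMogat1 label and 3020 to 3140 TPM in the shCTRL label, with 7 of 12 called higher and 1 lower. Dendritic cell markers summed to 770 to 810 TPM in the shMogat1 label and 598 to 607 TPM in the shCTRL label, although 1 of 8 was called higher and 4 lower. Siglech, a marker of plasmacytoid dendritic cells, fell by 2.38 (SE 0.10, adjusted p = 2.78e-06) and Flt3, a growth factor receptor of dendritic cell precursors, fell by 1.80 (SE 0.10, adjusted p = 9.19e-06). Fibroblast markers summed to 894 to 948 TPM in the shMogat1 label and 1880 to 1923 TPM in the shCTRL label, with 6 of 8 called lower. Epcam lay at 28.3 to 30.3 TPM in the shMogat1 label and 2.82 to 4.57 TPM in the shCTRL label. The part of these cells in the ligand values was not tested. Of 20 interferon signalling genes, 9 were called higher and 5 lower. Ifng rose by 0.26 (adjusted p = 0.00135) and Usp18 fell by 1.00 (SE 0.06, adjusted p = 1.01e-05). Ackr3 averaged 19.6 ± 0.353 TPM in the libraries labelled shMogat1 and 50.3 ± 2.09 TPM in those labelled shCTRL (difference -1.32, SE 0.05, adjusted p = 9.76e-07).

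**Figure D5:**
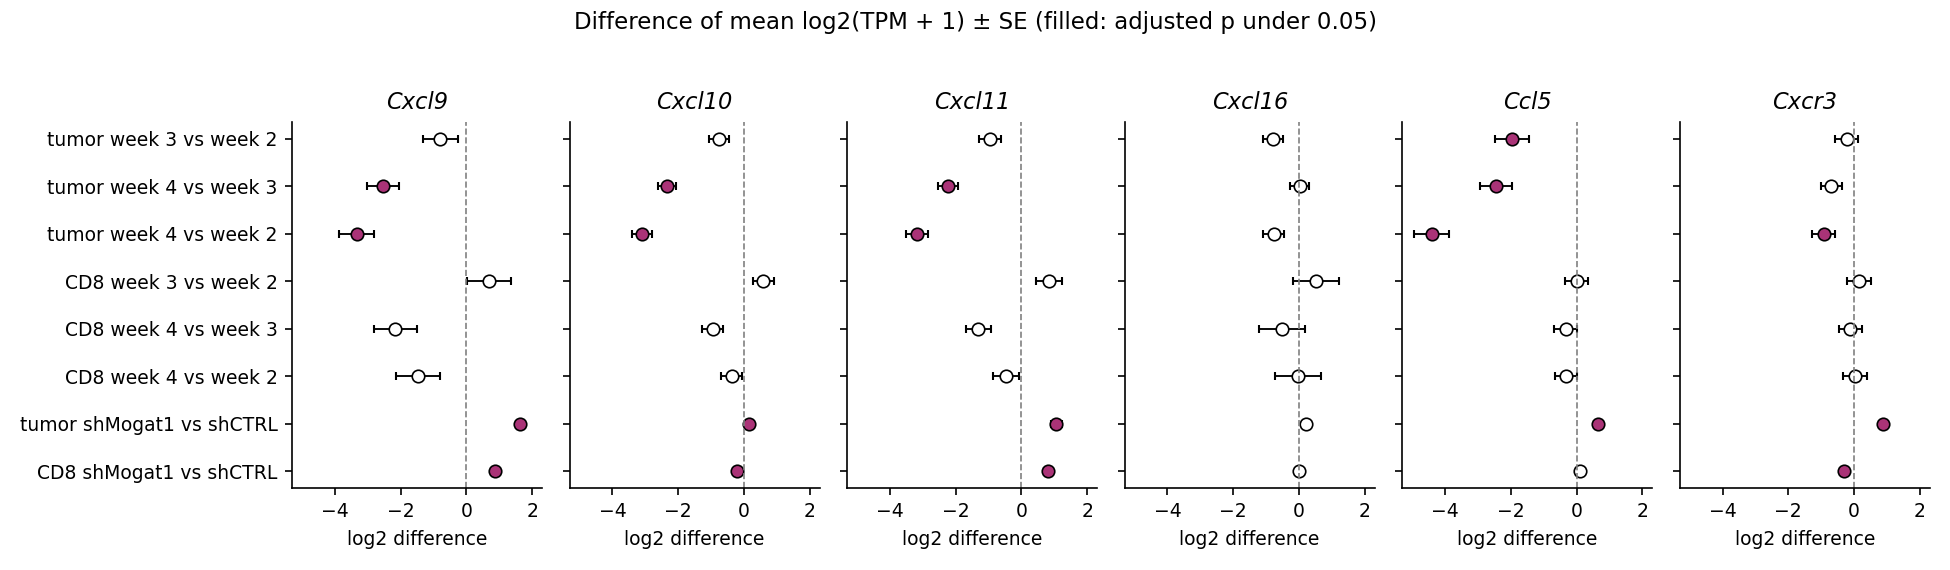
Difference of mean log2(TPM + 1) with its SE for each of the 6 genes (panels) in the 8 comparisons (rows), the group named before "vs" minus the group named after it. Filled points passed an adjusted p of 0.05. Cxcl9, Cxcl10, Cxcl11 and Ccl5 lie left of 0 at week 4 in tumor cells, and no point is filled in the comparisons of weeks in CD8 T cells.

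Set side by side across tables, which were scaled separately, the levels of the genes other than Cxcl11 ordered as follows. Cxcl10 ran from tumor cells of week 2 (723.5 ± 172 TPM) over week 3 (433.2 ± 136), the tumor libraries labelled shMogat1 (171.8 ± 2.71) and shCTRL (153.3 ± 13.9), then tumor cells of week 4 (85.5 ± 28.7) between the CD8 T cell libraries labelled shMogat1 (80.1 ± 5.36) and shCTRL (92.1 ± 4.85), down to the CD8 time course (24.8 ± 5.94 to 51.0 ± 18.9). The spreads of weeks 2 and 3 in tumor cells overlapped, as did that of tumor cells of week 4 with both CD8 groups of the knockdown set and with CD8 week 3. Cxcl9 in tumor cells of week 4 (46.1 ± 27.7 TPM) overlapped with the CD8 libraries labelled shMogat1 (40.9 ± 0.793) and with CD8 week 3 (30.9 ± 9.95). That spread also reached the tumor libraries labelled shMogat1 (27.6 ± 2.53), CD8 week 2 (22.5 ± 15.3) and the CD8 libraries labelled shCTRL (21.8 ± 0.946). The lowest groups of Cxcl9 were the tumor libraries labelled shCTRL (8.27 ± 0.238) and CD8 week 4 (7.34 ± 6.19), whose spreads overlapped.

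For Ccl5 the CD8 groups stood highest, at 388.5 ± 100 to 527.5 ± 301 TPM in 5 groups whose spreads overlapped. Tumor cells of week 2 (192.3 ± 126 TPM) came next, with a spread that reached into those of CD8 weeks 2 and 4, and tumor cells of week 4 (7.71 ± 5.03) were the lowest. Cxcr3 likewise lay at 36.4 ± 12.5 to 48.0 ± 2.48 TPM in the 5 CD8 groups, at 6.47 ± 0.50 and 3.03 ± 0.467 TPM in the tumor cell libraries labelled shMogat1 and shCTRL, and at 1.76 ± 1.46 TPM or less in the tumor cells of the time course. Cxcl16 was highest in tumor cells of week 2 (54.8 ± 18.3 TPM), with a spread that overlapped with weeks 3 and 4, and the CD8 libraries labelled shMogat1 (32.6 ± 0.778) and shCTRL (32.9 ± 1.09) overlapped in spread with tumor cells of weeks 3 and 4 (30.5 ± 7.07 and 31.7 ± 10.2). Its lowest groups were the CD8 weeks, at 7.16 ± 1.95 to 12.2 ± 7.35 TPM.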

How the data were processed

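Tests were run on TPM tables as deposited by the authors, who per the labels' protocols extracted RNA with TRIZOL and used a stranded mRNA-seq kit. HISAT2, Trim Galore, FastQC and build mm10 are listed, without versions, in the submitters' processing notes. The read counter and annotation are not given in the sources used here. The tables were scaled separately, so tests stay within a table. In each table, 27 rows that carry a date instead of a symbol were left out (at most 0.184% of the TPM of a library).

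Groups were compared on log2(TPM + 1) with limma 3.58.1 (eBayes with trend, R 4.3.3), with all groups of a table in 1 fit, for genes with at least 1 TPM in at least 3 libraries, and Benjamini-Hochberg adjustment over all tested genes. Fold differences on this scale understate changes of low genes. Ratios of 2 genes were tested by exact permutation of libraries over weeks, with the between-week F statistic over all 3 weeks together. The fit, the permutation test and the recovery of read numbers were tested on simulated data. Read numbers were recovered from TPM steps (tolerance 0.05 of a whole number) and describe depth only; intervals or limits from them cover counting error only. Genes per library at 1 TPM or more numbered 11844 to 14205. Python 3.11.15, pandas 2.3.3, numpy 2.4.6, scipy 1.17.1 and matplotlib 3.10.9 were used.

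The members and the 19 gene lists were chosen with earlier results of these data known. The rule for genes to name covered all 6 members, Mogat1, the receptors and proteases of the ligands, Ptprc, Epcam, Cd3e and Cd8a, from every other list the 2 genes with the smallest adjusted p in a comparison, and the 5 genes most like a member. Genes named beyond this rule (Ifng, Irf1, Tbx21, Ccr2 and Cd53 among them) were chosen for their role. Not every gene the rule covers is described, and some genes of the lists and ratio families are not reported here. Alternatives were pseudocounts of 0.1 and 0.5, no filter and a filter of 5 TPM, median-of-ratios and quantile rescaling, fits of the 2 groups only, library weights, eBayes without trend, a replicate block and leaving out each library.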

Additional observations from a re-analysis of the deposited data

Results flagged for a closer look

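In 3 places all libraries of a group lay on opposite sides of the compared group's mean in tumor cells and in CD8 T cells. The share of all tested genes that do so is not given here, so the 3 places are a description only. The difference between the cell types was not tested, since the tables were scaled separately. Cxcl11 was lower in each tumor cell library of week 3 than the week 2 mean (log2 difference -0.95, adjusted p = 0.0613) and higher in each CD8 T cell library of week 3 (0.84, adjusted p = 0.386). Its tumor cell groups overlapped, at 13.1 to 31.1 TPM at week 3 and 25.6 to 44.5 TPM at week 2. Its CD8 T cell libraries of week 2 held 4, 43 and 48 reads. Cxcl10 was higher in each tumor cell library labelled shMogat1 than the mean of those labelled shCTRL (0.17) and lower in each CD8 T cell library labelled shMogat1 (-0.20). The tumor cell groups overlapped, and both calls were lost under median-of-ratios rescaling (limma adjusted p = 0.176 and 0.0768). Cxcr3 was higher in each tumor cell library labelled shMogat1 (0.89) and lower in each CD8 T cell library so labelled (-0.30). No single library stood far from the others of its group in the groups of 4 that could be examined.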

How the results depend on the processing

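The calls of Cxcl9, Cxcl10, Cxcl11 and Ccl5 at week 4 in tumor cells, against week 2 and against week 3, held in every alternative. So did those of Cxcl9, Cxcl11, Ccl5 and Cxcr3 in the tumor cell libraries and of Cxcl9, Cxcl11 and Cxcr3 in the CD8 T cell libraries of the knockdown set. Of 891 values of members under alternatives, 797 kept their direction and their side of the threshold, 23 passed only under the alternative, 32 no longer passed and 39 changed sign. The cause was not tested. Depth limits Cxcr3 in tumor cells and Cxcl11 in CD8 T cells, which rest on few reads.

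Counts of called genes were 6843, 3560 and 2026 in tumor cells (week 4 against 2, 3 against 2, 4 against 3) and 2335, 6 and 356 in CD8 T cells. Fits of only the 2 groups gave 1637 (tumor, week 3 against 2), 3857 (tumor, 4 against 3) and 1356 (CD8, 4 against 2). Library weights gave 4614 (tumor, 4 against 3) and 5910, 869 and 3661 (CD8, 4 against 2, 3 against 2, 4 against 3). For CD8 week 4 against 3, no filter gave 234 and quantile normalization 605. Leaving out 1 library gave 5278 to 7765, 1371 to 5751 and 1251 to 3580 in tumor cells, 928 to 3115, 5 to 10 and 46 to 630 in CD8 T cells, and 5842 to 6369 and 4620 to 5465 in the tumor and CD8 T cell knockdown tables (7052 and 5878 with all libraries). The extremes were without week 2 replicates 1 (5751) and 2 (1371) in tumor cells, week 2 replicate 2 (928) in CD8 T cells, and week 3 replicate 3 (46) in CD8 T cells.

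The deviations of same-numbered libraries had correlations of -0.263 to 0.233 in the tumor and -0.241 to 0.426 in the CD8 T cell time course. In the tumor and CD8 T cell knockdown tables they were -0.036 to 0.023 and 0.033 to 0.046. Libraries of unlike number spanned -0.357 to 0.324 in the tumor and -0.435 to 0.454 in the CD8 T cell time course. So few pairs cannot show whether a number marks a shared animal or batch. The numbers were not taken as pairs. A replicate block gave 5885, 2408 and 1470 called genes in tumor cells and 1422, 0 and 3 in CD8 T cells over the weeks, and 6709 and 4003 in the knockdown tables. With the block, Cxcr3 at week 4 in tumor cells (adjusted p = 0.0785), Cxcl10 in the tumor (0.0505) and CD8 T cell (0.0936) knockdown tables no longer passed, Cxcl10 at week 3 in tumor cells passed (0.0434), and the signs of Ccl5 at week 3 (-0.067) and of Cxcr3 at week 4 against 3 (0.069) in CD8 T cells changed.

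None of the 39 values that changed sign passed the threshold, nor did their values as reported. In CD8 T cells at week 4 against 2 these were Cxcl16 (0.084 and 0.029 with pseudocounts of 0.1 and 0.5, 0.0049 under median-of-ratios rescaling, 0.25 with library weights), Ccl5 (0.20, library weights) and Cxcr3 (-0.28, library weights). At week 3 against 2 they were Ccl5 (-0.10 and -0.014 under median-of-ratios and quantile rescaling) and Cxcr3 (-0.10, library weights), and at week 4 against 3 Cxcr3 (0.0081 and 0.0074 under both rescalings). In the CD8 T cell knockdown table it was Cxcl16 (0.036 and 0.032 under both rescalings, 0.0045 with library weights). Leaving out 1 library gave differences of -0.61 to 0.17 for Cxcr3 at week 3 against 2 and -0.12 to 0.26 for Cxcl16 at week 4 against 3 in tumor cells. In CD8 T cells it gave -0.88 to 0.45 (Cxcl16), -0.67 to 0.11 (Ccl5) and -0.22 to 0.37 (Cxcr3) at week 4 against 2. At week 3 against 2 it gave -0.0081 to 1.17 (Cxcl9), -0.35 to 1.04 (Cxcl16), -0.34 to 0.44 (Ccl5) and -0.12 to 0.49 (Cxcr3), at week 4 against 3 -0.37 to 0.15 (Cxcr3), and in the knockdown table -0.029 to 0.014 (Cxcl16).

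Of the ratios in tumor cells, Cxcl11 was 0.15 with Cxcl9 as denominator, Cxcr3 per Ptprc was -0.021 with a pseudocount of 0.1, and Ccl5 per Cd53 was -2.79 and passed. Per Cd8a instead of Cd3e in CD8 T cells, the differences were -0.56 for Cxcr3 and -0.92 for Ccl5. Leaving out 1 library gave per Cxcl10 in tumor cells -0.67 to 0.29 (Cxcl9), -0.43 to 0.27 (Cxcl11), 1.93 to 2.61 (Cxcl16), -1.70 to -0.91 (Ccl5), per Ptprc in tumor cells -1.996 to -0.73 (Cxcl9), -1.33 to -0.42 (Cxcl10), -1.76 to -0.50 (Cxcl11), 1.11 to 1.57 (Cxcl16), -2.74 to -1.73 (Ccl5), 0.91 to 1.40 (Cxcr3), and per Cd3e in CD8 T cells -0.030 to 0.71 (Cxcr3), 1.42 to 2.11 (Cxcr6), -0.39 to 0.58 (Ccl5).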
